A study of Mus musculus with 5 samples.

Results

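Vascular smooth muscle cells of mouse inguinal white adipose tissue (iWAT) were taken from single-cell RNA sequencing of the stromal vascular fraction, the non-adipocyte cells released from the fat pad by collagenase. A cell was a member if it held at least 3 UMIs (unique molecular identifiers, which count captured RNA molecules) of Myh11, at least 10 of Acta2 and 0 of Pdgfra, Ptprc and Pecam1. Of 46684 cells, 699 met this rule. They came from 5 libraries, with 529, 86, 45, 15 and 24 members at 7, 14, 18, 21 and 28 d of age. Each library pooled the iWAT of 2 male C57BL6/J mice, taken from 2 litters, with no genetic change and no treatment. The lymph node in the depot was not removed on purpose, and mature adipocytes were not captured. Each age is therefore 1 library, and differences between ages were not tested. Members held a median of 7453, 7192.5, 7483, 8546 and 7632 UMIs at 7, 14, 18, 21 and 28 d, so that depth per cell was similar. The summed UMIs of the members were 4660366, 709666, 376675, 167467 and 225232 at 7, 14, 18, 21 and 28 d, which made 7 d by far the most precise age. For comparisons the 21 d library, with under 20 members, was joined with 28 d or the later ages were pooled.

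Smooth muscle cells and pericytes are the mural cells of blood vessels. Smooth muscle cells ring arteries, arterioles and veins and contract through smooth muscle myosin, which is switched on when myosin light chain kinase (Mylk) phosphorylates its light chains. Myocardin and serum response factor drive the genes of the contractile apparatus through CArG boxes in their promoters, and Notch3 signalling maintains arterial smooth muscle. Pericytes lie on capillaries, carry the ATP-sensitive potassium channel of Kcnj8 and Abcc9, and hold little of the contractile apparatus.

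The label was checked on markers that did not choose the cells. Tagln (transgelin, an actin-binding protein of smooth muscle) was present in every member before thinning of the counts, and Mylk in 99.6% of members at 7 d. Endothelial markers were close to 0. The 6 endothelial genes summed to 24.7, 21.1, 7.96, 0 and 13.3 CPM (UMIs per 1000000 UMIs of the members) from 7 d to 28 d. Transcripts best known from other cells were found too. At 7 d, 370 of 529 members held a UMI of the globin Hbb-bs, and 45 held at least 2 UMIs of Ccl19. At later ages 20 of 170 members held at least 2 UMIs of Ccl19, and 1 held as many of Ccl21a. The source of the Ccl19 in members was not tested. Krt5, Krt14 and Krt17 together reached 3 or more UMIs in 7 members, 6 of them at 7 d, and all 7 also held Oxtr, the oxytocin receptor, while Notch3 and Pdgfrb were each found in 1 of them. These keratins are markers of myoepithelial cells, which also use Myh11 and Acta2, so that these 7 cells did not carry the marker pattern of vascular smooth muscle. Libraries shared 243 barcodes, and 5 members held such a barcode, but no barcode named 2 members. A median of 4.52%, 4.03%, 4.96%, 6.95% and 7.33% of member UMIs was mitochondrial, in order of age.

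The gate set an edge within a continuum. Members held a median of 15 Myh11 UMIs and 73 Acta2 UMIs. The 58 members with 3 or 4 Myh11 UMIs had 4813 CPM of Tagln and 167 CPM of Cnn1, and the 35 cells left just outside, with 2 Myh11 UMIs, had 4611 CPM and 135 CPM. On the Acta2 side, 27 members with 10 to 14 UMIs had 3041 CPM of Tagln and 26 cells with 5 to 9 UMIs had 1878 CPM. A further 337 cells met both thresholds but held Pdgfra (99 cells), Ptprc (162 cells) or Pecam1 (148 cells). The pericyte gene Rgs5, a regulator of G-protein signalling, was not part of the member rule, and 535 of the 699 members held at least 3 of its UMIs.

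Members made up 3.42% of the cells at 7 d (exact 95% interval 3.14 to 3.72, 529 of 15459). The share was 1.49% at 14 d (1.19 to 1.84, 86 of 5768), 0.713% at 18 d (0.520 to 0.953, 45 of 6312), 0.130% at 21 d (0.0729 to 0.215, 15 of 11522) and 0.315% at 28 d (0.202 to 0.468, 24 of 7623). The share was thus highest at 7 d and lowest at 21 d, and the intervals of 7 d, 14 d, 18 d and 21 d did not overlap. Among cells without Ptprc, the pan-leukocyte gene, the share was 8.50%, 3.38%, 2.51%, 0.266% and 1.09% at 7, 14, 18, 21 and 28 d, in the same order. The pericyte gate took 91, 18, 4, 4 and 13 cells at these ages. The intervals cover counting error only, and age cannot be told apart from the library.

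**Figure D1:**
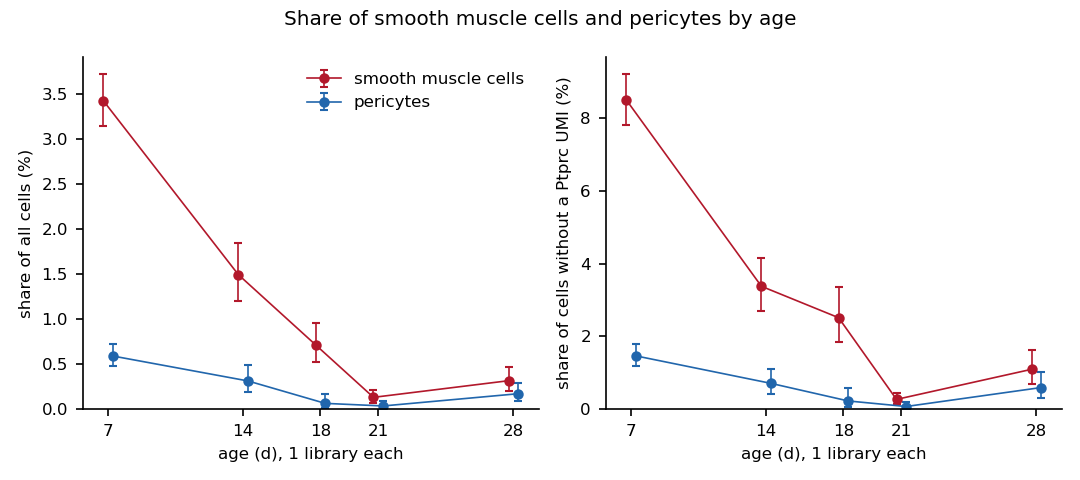
Share of gated smooth muscle cells and pericytes in each library, in percent of cells, against age in days, of all cells (left) and of cells without Ptprc (right), with exact 95% binomial intervals of single libraries. Smooth muscle cells fell from 3.42% at 7 d to 0.130% at 21 d.

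Smooth muscle cells were compared with pericytes, cells of the same matrix with at least 3 Rgs5 UMIs, at most 1 Myh11 UMI and none of Pdgfra, Ptprc and Pecam1. Genes of the contractile apparatus were higher in smooth muscle cells, together with Eln, Mef2c and Cav1. Of 12 pericyte genes 4 were lower, among them Kcnj8 and Abcc9 of the ATP-sensitive potassium channel. UMIs were summed over each class at 7 d (529 and 91 cells) and over the pooled later ages (170 and 39 cells), and edgeR's quasi-likelihood test was fitted with library unit as a block. Of 9203 genes, 166 were higher in smooth muscle cells (1.80%) and 123 were lower (1.34%) at an adjusted p under 0.05, and 165 and 123 of these moved the same way in both units. Without the block the counts were 65 and 52, and without the 7 members with keratins they were 167 and 135. Smooth muscle cells were cut on Myh11 and Acta2, and pericytes on Rgs5 and low Myh11, of the same cells, so genes that vary with these across cells were bound to differ. Across the members at 7 d, Spearman's rho with Acta2 was 0.83 for Tpm2, 0.80 for Tagln, 0.79 for Myl9 and 0.71 for Cnn1 (n = 529). Of the 166 higher genes 10 had 0 UMIs in the pericytes of both units and passed the filter on low counts through the smooth muscle sums alone, so their calls are not read as support. Genes with few pericyte UMIs at 7 d and few or 0 later also passed it mainly through those sums. Among them were Cnn1, Myocd, Actc1, Sorbs2 and Nrip2. Their p-values are not read as support either. The p-values measure only the spread of the difference between the 2 units. The pericytes at 7 d were mixed: 40 of 91 held at least 2 UMIs of Lum, a fibroblast gene, and their median Col1a1 was 6707 CPM per cell. The later pericytes were mixed too: 6 of 39 held at least 2 UMIs of Ccl21a and 5 of Ccl19, genes of lymph node reticular cells. A narrower pericyte class, from which cells with 2 UMIs of Lum, Ccl21a, Ccl19 or another gene of other cell types were left out, kept 43 of 91 cells at 7 d and 32 of 39 later, and gave 273 genes higher and 158 lower.

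Of the 25 contractile genes tested, 16 were higher in smooth muscle cells, none was lower, and all 25 had a log2 fold change above 0. Their median log2 fold change was 2.46, against 0.02 over all genes. Cnn1, calponin, which binds actin and slows myosin cycling and lies on chromosome 9 (chr9:22099216-22109630, GRCm38), had 575 CPM in smooth muscle cells and 7.64 CPM in pericytes at 7 d, and 471 and 0 CPM at later ages (log2 fold change 6.56 ± 0.56 SE, edgeR adjusted p = 0.0116). With pericyte sums near 0, this p is not read as support. Actg2, the gamma actin of smooth muscle, had 703 and 30.6 CPM at 7 d and 502 and 5.06 CPM later (4.91 ± 0.49, edgeR adjusted p = 0.0116). Tagln had 10587 and 691 CPM at 7 d and 6660 and 1367 CPM later (3.11 ± 0.46, edgeR adjusted p = 0.0205). Mylk had 1982 and 227 CPM at 7 d and 2676 and 527 CPM later (2.74 ± 0.33, edgeR adjusted p = 0.0136). Lmod1, Mustn1, Synm, Pcp4l1, Ppp1r12b, Ppp1r14a, Tpm1, Tpm2, Myl9, Myl6, Csrp1 and Flna completed the 16, with log2 fold changes from 1.84 for Myl6 to 4.35 for Synm. Desmin (Des), the muscle intermediate filament, had 249 and 134 CPM at 7 d and 309 and 547 CPM later, and did not pass the test. Against the narrower pericytes, 24 of the 25 were higher.

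A CArG box (CC, then any 6 bases A or T, then GG, the same on both strands) was looked for in the 250 bases before each RefSeq gene start, every start of a gene with several included. It was found in 1.62% of 27025 genes and in 3 of the 23 contractile genes with an entry, Myl9, Myl6 and Vcl, the last of which encodes vinculin of actin anchorage sites. The Myl6 match lies before an alternative RefSeq start inside that gene, not before its outermost start. These stretches (RefSeq, GRCm38.p6, written 5′ to 3′ on the gene's strand) are shown because they hold the element named for smooth muscle genes, with the box in capitals. They lie at chr2:156775278-156775337 (plus strand, Myl9), chr10:128493025-128493084 (minus strand, Myl6) and chr14:20929148-20929205 (plus strand, Vcl). The matches describe these windows only.
Myl9: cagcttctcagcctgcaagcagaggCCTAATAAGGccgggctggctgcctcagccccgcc
Myl6: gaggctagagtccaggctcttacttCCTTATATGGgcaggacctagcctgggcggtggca
Vcl: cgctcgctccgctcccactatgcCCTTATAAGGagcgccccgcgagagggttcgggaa

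Among 18 regulators of the smooth muscle programme, 2 were higher and none was lower, with a median log2 fold change of 0.50. Myocd, the coactivator myocardin, had 79.0 CPM in smooth muscle cells and 5.09 CPM in pericytes at 7 d, and 107 and 0 CPM later (4.39 ± 0.60, edgeR adjusted p = 0.0170). As for Cnn1, the pericyte sums were near 0 and this p is not read as support. Mef2c, a transcription factor of muscle lineages, had 544 and 148 CPM at 7 d and 675 and 182 CPM later (1.88 ± 0.30, edgeR adjusted p = 0.0246). Id2 was also higher, and Tbx18, a transcription factor of mural cells, lower, against the narrower pericytes. Srf, the DNA-binding partner of myocardin, had 44.6 and 19.1 CPM at 7 d and 74.4 and 45.6 CPM later and did not pass the test. In the Notch pathway 2 of 12 genes were higher and none was lower, with a median of 0.31. Nrarp, a feedback inhibitor induced by Notch, had 256 and 34.4 CPM at 7 d and 162 and 15.2 CPM later (3.00 ± 0.37, edgeR adjusted p = 0.0136), and Nrip2 had 159 and 1.27 CPM, then 260 and 40.5 CPM (4.15 ± 0.71, edgeR adjusted p = 0.0314). As the pericyte value of Nrip2 at 7 d was near 0, its p is not read as support. The receptor Notch3 itself had 540 and 275 CPM at 7 d and 1052 and 967 CPM later, and did not pass the test. Tgfb2, a ligand of the TGF-beta family, was the single gene of 23 in that family to be called, with 200 and 56.0 CPM at 7 d and 155 and 20.3 CPM later (2.14 ± 0.39, edgeR adjusted p = 0.0369). With the narrower pericytes 4 of 22 in the family were higher, Tgfb2, Inhba, Gdf10 and Smad7. Inhba, which encodes the subunit of activin A, had 193 and 27.0 CPM at 7 d and 247 and 0 CPM later in that comparison (log2 fold change 3.98, edgeR adjusted p = 0.000159). With 0 CPM in those pericytes at later ages, this p is not read as support. Of the 5 PDGF genes none was called against all gated pericytes, and Pdgfrb was lower against the narrower ones.

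Of 21 genes of ion channels and calcium handling, 7 were higher and 2 were lower in smooth muscle cells. P2rx1, the ATP-gated cation channel through which sympathetic ATP contracts vessels, had 165 CPM at 7 d and 150 CPM later in smooth muscle cells and 0 UMIs in the pericytes of either unit. At 7 d this was at least 43.3-fold higher, taking 3 counts as the limit that 0 allows. Gja5, the gap junction protein connexin 40, had 103 and 27.0 CPM against 0 UMIs in pericytes, at least 26.9-fold higher at 7 d. Kcnmb1, a beta subunit that raises the calcium sensitivity of the large-conductance potassium channel, was at 27.7 CPM at 7 d and 26.4 CPM later, with 0 UMIs in pericytes and a 7 d difference of at least 7.25-fold. These 3 are among the 10 genes at 0 in both pericyte sums, and their calls are not read as support. The other 4 that were higher were Kcnab1 and Kcna5 of voltage-gated potassium channels, Ryr2, a calcium release channel, and Cav1 of caveolae. In the narrower pericytes Kcnab1, Kcna5 and Ryr2 had 0 CPM at later ages, and their p-values are not read as support. With the narrower pericytes Atp2a2, the calcium pump, was higher too and Gjc1, connexin 45, was lower. The 2 lower against all gated pericytes were the subunits of the ATP-sensitive potassium channel. Kcnj8 had 30.7 CPM in smooth muscle cells and 149 CPM in pericytes at 7 d, and 41.9 and 466 CPM later (log2 fold change -2.86 ± 0.36, edgeR adjusted p = 0.0138). Abcc9 had 64.2 and 205 CPM at 7 d and 152 and 856 CPM later (-2.08 ± 0.32, edgeR adjusted p = 0.0226). Of 16 vasoactive receptors and cyclic GMP genes only Pde3a, a cyclic nucleotide phosphodiesterase, was called, at 325 and 70.0 CPM at 7 d and 429 and 167 CPM later (1.80 ± 0.33, edgeR adjusted p = 0.0385). Agtr1a, the angiotensin II receptor, had 11.2 and 30.6 CPM at 7 d and 21.0 and 243 CPM later and did not pass the test (edgeR adjusted p = 0.0503). Agtr1a was lower in smooth muscle cells against the narrower pericytes (log2 fold change -3.51, edgeR adjusted p = 6.03e-06), as was the endothelin receptor Ednrb (-4.36, edgeR adjusted p = 0.00132). Ednrb had 14.6 and 43.3 CPM at 7 d and 6.09 and 858 CPM later in that comparison.

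Eln, which encodes elastin of arterial walls, was the only gene of 11 in the elastic fibre list to be called. It had 3298 CPM in smooth muscle cells and 726 CPM in pericytes at 7 d, and 5391 and 273 CPM later (3.19 ± 0.58, edgeR adjusted p = 0.0372). With the narrower pericytes 4 of the 11 were higher, Eln, Mfap5, Lox and Loxl1, the last 2 being enzymes that cross-link elastin and collagen. Of 17 basement membrane genes, 2 were higher, the laminin chain Lama5 (3.25 ± 0.36) and the integrin Itga8 (2.91 ± 0.37), with edgeR adjusted p of 0.0116 and 0.0142. With the narrower pericytes Lamb2 was higher as well, and Col4a1, Col4a2 and Lamb1 were lower. Of 17 genes of fibrillar collagen and matrix none was higher and Mgp, matrix Gla protein, was lower (-4.63 ± 0.64, edgeR adjusted p = 0.0178). When the narrower pericytes were used, Fn1 and Thbs1 of these 17 were higher, Mgp, Col5a1, Col6a1, Col6a2 and Col6a3 were lower, and 5 of the list had the other direction than against all gated pericytes. Col1a1 had 1527 CPM in smooth muscle cells and 16759 CPM in pericytes at 7 d but 2347 and 1286 CPM later, so that its direction differed between the units, and it did not pass the test. The fibroblast markers moved with this result: Lum had 667 CPM in pericytes at 7 d and 20.3 CPM later. Their part in the matrix genes was not tested. The narrower class left out cells with Lum by construction, so genes that vary with Lum across pericytes were bound to fall in it. The part of this cut in the calls of Mfap5, Lox, Loxl1, Fn1 and Thbs1 was not tested.

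Of 12 pericyte genes 4 were lower in smooth muscle cells and none was higher, with a median log2 fold change of -0.46 and 3 of the 12 above 0. The gate gene Rgs5 was not tested: at 7 d it had 1734 CPM in smooth muscle cells and 1259 CPM in pericytes. At every later age it was higher in pericytes. It had 2283, 2509, 1129 and 2437 CPM in smooth muscle cells and 5590, 3885, 1696 and 5278 CPM in pericytes at 14, 18, 21 and 28 d. The other 5 pericyte markers (Kcnj8, Abcc9, Higd1b, Cspg4 and Vtn) summed to 289 CPM and 511 CPM at 7 d, lower in the members, although Higd1b and Cspg4 were higher there, at 71.5 and 26.7 CPM and at 73.6 and 31.8 CPM. Besides Kcnj8 and Abcc9 the 4 lower genes were Steap4, a metalloreductase, with 12.7 and 117 CPM at 7 d and 79.8 and 744 CPM later (-3.21 ± 0.31, edgeR adjusted p = 0.0116), and Art3 (-2.03 ± 0.32, edgeR adjusted p = 0.0241). Pdgfrb, the receptor that recruits mural cells, had 242 and 252 CPM at 7 d and 500 and 901 CPM later and did not pass the test. Against the narrower pericytes, with 600 CPM at 7 d and 1042 CPM later, it was lower (log2 fold change -1.06, edgeR adjusted p = 0.00386), and 9 of the 12 were lower in all. In the IGF axis Igfbp5, an IGF-binding protein, was higher, with 2043 and 452 CPM at 7 d and 5097 and 1970 CPM later (1.77 ± 0.33, edgeR adjusted p = 0.0385), and Igf1 and Igfbp3 were lower. Against the narrower pericytes Igf1 and Igfbp3 were no longer called, at log2 fold changes of -0.76 and -0.74 (edgeR adjusted p = 0.499 and 0.595), and 4 of the 10 were higher. Icam1 and Vcam1, adhesion molecules for leukocytes, were the 2 called of 10 NF-kappaB response genes, both lower (-2.40 ± 0.39 and -2.57 ± 0.34, edgeR adjusted p = 0.0266 and 0.0162). Vcam1 had a log2 fold change of 0.13 against the narrower pericytes. None of 14 cell cycle, 14 immediate-early and stress and 9 adipogenic genes was called. Against the narrower pericytes the cell cycle gene Hmgb2 was lower, Fosb, Atf3 and Nr4a1 of the immediate-early genes were higher, and Fabp4 and Cd36 of the adipogenic genes were lower.

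**Figure D2:**
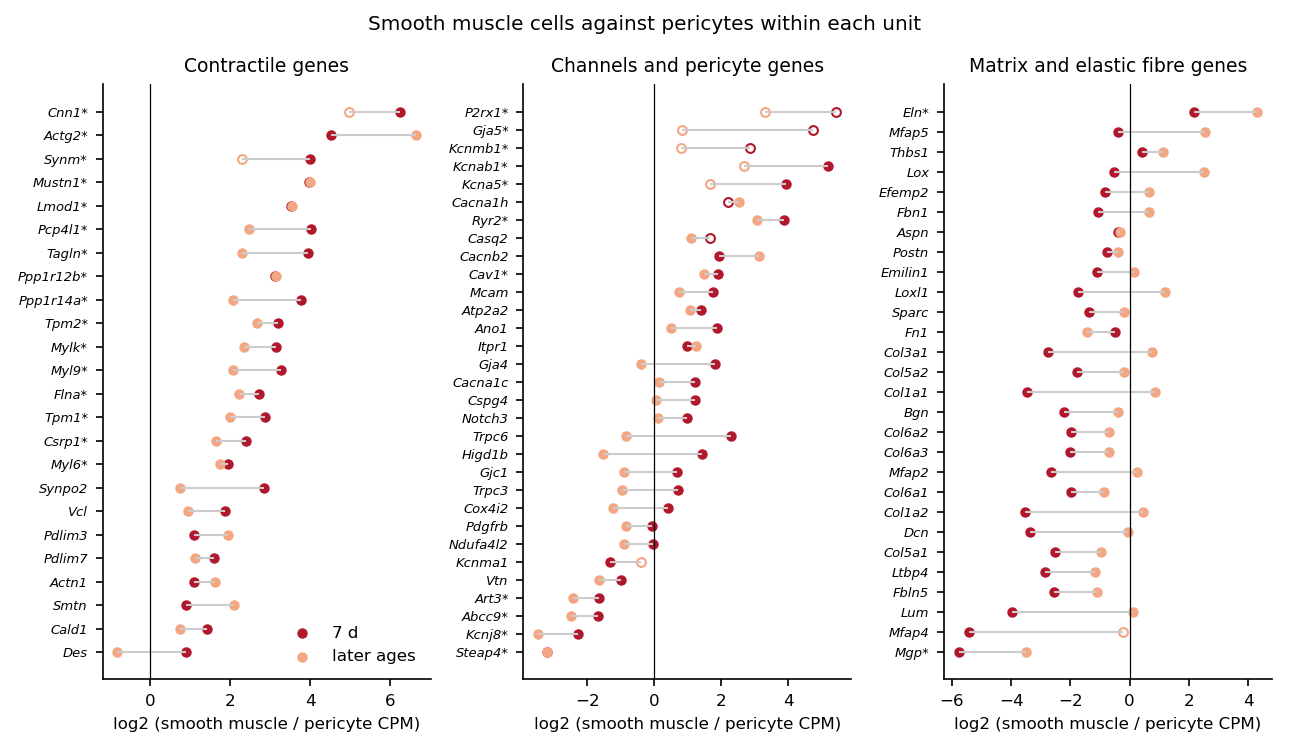
Log2 ratio of smooth muscle cells to pericytes for genes of the lists at 7 d and at later ages; open circles mark a class at 0 set to the floor of 3 counts, and asterisks mark edgeR adjusted p under 0.05. The contractile genes lie above 0 in both units except Des at later ages, Steap4, Kcnj8 and Abcc9 lie below 0 in both, and Col1a1 changes side.

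The largest differences not yet described, among genes with at least 200 UMIs, were chosen by size. Higher in smooth muscle cells were Rergl, a Ras-like protein at 78.7 CPM at 7 d and 77.1 CPM later with 0 UMIs in pericytes (at least 20.6-fold at 7 d, a call not read as support since the gene is among the 10 above), and Cpxm2, Wisp2, Sox6, Hspb6, Dtna, Sorbs2 and Actc1. Sorbs2, an adaptor of the actin cytoskeleton, had 246 and 1.27 CPM at 7 d and 336 and 25.3 CPM later (5.24 ± 0.68, edgeR adjusted p = 0.0144). Actc1, the actin named for heart muscle, had 83.5 and 2.55 CPM at 7 d and 58.8 and 0 CPM later (5.20 ± 0.63, edgeR adjusted p = 0.0136). With few pericyte UMIs, the p-values of Sorbs2 and Actc1 are not read as support. Lower were C3, Ccl21a, Clu, Tgfbi, Cpxm1, Cygb, Lpar1, Ccl19, Cthrc1 and Emp1, and Mest, the 1 gene called of 11 in the imprinted and fetal growth list. C3, complement component 3, had 11.2 and 302 CPM at 7 d and 4.06 and 1084 CPM later (-6.05 ± 0.73, edgeR adjusted p = 0.0136). Cygb, cytoglobin, had 32.4 and 649 CPM at 7 d and 52.7 and 603 CPM later (-3.94 ± 0.38, edgeR adjusted p = 0.0116). Ccl21a and Ccl19 are chemokines of lymph node reticular cells, and 8 and 10 of the 91 pericytes at 7 d held at least 2 of their UMIs. At later ages 6 and 5 of 39 pericytes did. Ccl21a had 1217 CPM in pericytes at 7 d and 3337 CPM later. In the 14 d pericytes the 4 reticular markers summed to 9160 CPM, above the 7719 CPM of the 6 pericyte markers. Against the narrower pericytes the log2 fold changes of Clu and Ccl19 were 0.76 and 3.12, and Tgfbi, Cpxm1, Mest and Cthrc1 were no longer called.

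**Figure D3:**
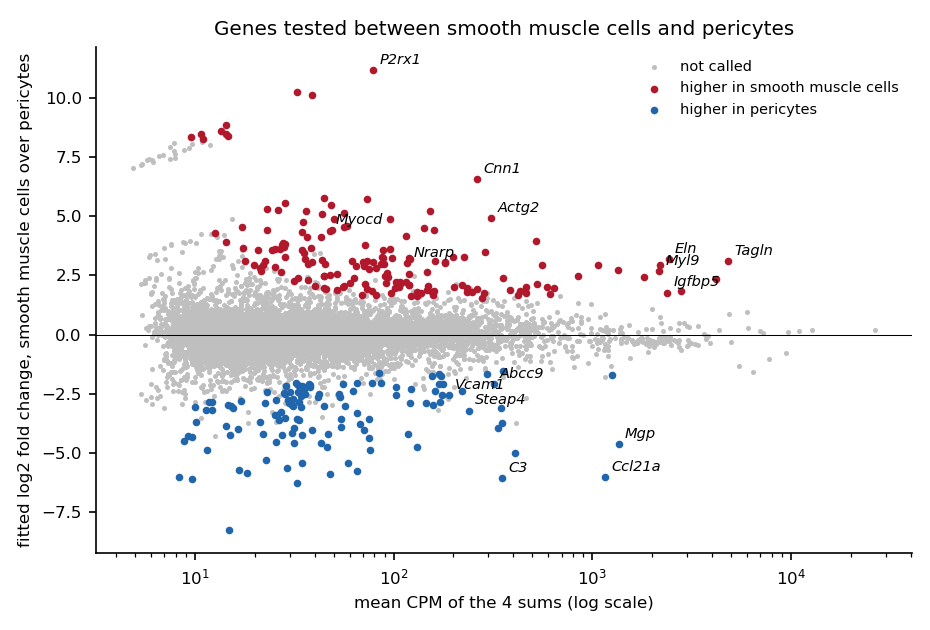
Fitted log2 fold change of smooth muscle cells over pericytes against the mean CPM of the 4 sums (log axis) for the 9203 genes tested, with the 166 higher and 123 lower genes coloured. Fitted values of genes with 0 UMIs in pericytes depend on the prior count and are not bounds.

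Smooth muscle cells at 7 d were set against those of the later ages. At 7 d chemokine and other NF-kappaB response genes and cell cycle genes were higher, contractile genes were not called in either direction, and several receptors and adipogenic genes were lower. Channel genes went both ways, with 4 lower and 2 higher of 21. With 1 library per age no test was made: a gene was called when the CPM at 7 d and over the pooled later ages differed at least 2-fold and 14 d, 18 d and the joined 21 and 28 d cells all lay on the same side. Of 8869 genes with at least 50 UMIs, 323 were higher at 7 d (3.64%) and 580 were lower (6.54%). With TMM scaling, which moved the median log2 ratio of all genes from -0.17 to 0.00, the counts were 433 and 327. Age, the 7 d library and its dissociation cannot be told apart. Changes of the same kind were looked for in the Pdgfra cells (stromal cells with at least 3 Pdgfra UMIs and 0 of Myh11, Ptprc and Pecam1) of the same libraries: of the 323 genes higher at 7 d, 309 were measured there, 94 (30.4%) passed 2-fold the same way and 19 the other way. Of the 580 lower genes, 562 were measured, 66 (11.7%) passed the same way and 20 the other way. Over all 8757 genes measured in the Pdgfra cells, 4.85% were at least 2-fold higher and 2.57% at least 2-fold lower at 7 d. In the gated pericytes 94 of the 323 were measured, 66 (70.2%) passed the same way and 4 the other way. Of the 580, 105 were measured there, 59 (56.2%) passed the same way and 12 the other way. Over all 2917 genes measured in those pericytes, 12.7% were at least 2-fold higher and 11.7% at least 2-fold lower. Both classes share their libraries with the members.

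Of the 10 NF-kappaB response genes 8 were higher at 7 d and none was lower, with a median log2 ratio of 2.34, against -0.17 over all genes. The 5 macrophage markers moved in the members too, at 79.6, 2.82, 10.6, 5.97 and 13.3 CPM from 7 d to 28 d. Their part in these genes was not tested. Cxcl1, a neutrophil chemokine, had 1553, 328, 210, 496 and 107 CPM at 7, 14, 18, 21 and 28 d, a 5.48-fold difference (exact 95% interval 4.97 to 6.06). Ccl2, a monocyte chemokine, had 666, 64.8, 18.6, 41.8 and 26.6 CPM at these ages, 14.9-fold higher at 7 d (11.7 to 19.3) and 25.6-fold without the 14 d library. Nfkbia, the inhibitor of NF-kappaB that this factor induces, had 1059, 224, 130, 155 and 93.2 CPM, 6.14-fold higher at 7 d (5.41 to 6.99). In all 3 the 7 d library stood apart from every later age. Cxcl2 had 212 CPM at 7 d, of which 56.6% lay in 5 cells, and 1 UMI over all later members. Icam1 had 120 CPM at 7 d and 8.79 CPM over the later ages, and Cxcl10, a chemokine for T cells, 127 and 9.47 CPM. The 13.6-fold difference of Icam1 became 8.36-fold without 14 d and 32.9-fold without 18 d, and the 13.4-fold difference of Cxcl10 became 32.5-fold without 14 d. Il6 (68.4 CPM at 7 d, 74.7 at 14 d and 89.6 at 21 d) and Vcam1 were not called. The same 10 genes had a median log2 ratio of 2.16 in the Pdgfra cells, where Cxcl1 was 5.46-fold and Ccl2 10.7-fold higher at 7 d. In the pericyte gate 9 of them had at least 50 UMIs, with a median of 4.57.

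The kappaB motif, searched on both strands in the 250 bases before the gene start, was found in 4.46% of 27025 RefSeq genes and in 5 of the 6 NF-kappaB response genes with an entry, Nfkbia, Cxcl1, Cxcl2, Il6 and Tnfaip3. It was also found in 3 of the 23 contractile genes, Myl9, Des and Flna. The stretches of the 3 genes below (RefSeq, GRCm38.p6, 5′ to 3′ on the gene's strand, motif in capitals) are shown because each gene is among the 8 higher at 7 d. They lie at chr5:90891149-90891209 (plus strand, Cxcl1), chr5:90903777-90903837 (plus strand, Cxcl2) and chr12:55492648-55492701 (minus strand, Nfkbia). In Cxcl1 and Cxcl2 the capitals join 2 overlapping matches, which spell the same bases in both genes. The data hold no measure of binding at them.
Cxcl1: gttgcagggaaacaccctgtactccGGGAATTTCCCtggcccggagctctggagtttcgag
Cxcl2: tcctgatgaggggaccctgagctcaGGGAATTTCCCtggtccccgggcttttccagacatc
Nfkbia: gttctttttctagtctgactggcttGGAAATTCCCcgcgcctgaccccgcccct

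Cell cycle genes were higher at 7 d for 8 of 14, none was lower, and the median log2 ratio was 1.15. Ube2c, which marks mitosis, had 109, 25.4, 29.2, 5.97 and 35.5 CPM at 7, 14, 18, 21 and 28 d, 4.26-fold higher at 7 d (3.06 to 6.09). Its UMIs lay in 54 members at 7 d and 6 later. Top2a, topoisomerase of replicating cells, had 128, 16.9, 104, 0 and 129 CPM, so that 7 d did not stand apart from 18 d and 28 d, and without 14 d it was no longer called, nor were Mcm5 and Rrm2. Members with at least 5 UMIs of these 14 genes were 16.1% at 7 d (85 of 529, exact interval 13.0 to 19.5) and 5.29% at later ages (9 of 170, 2.45 to 9.81). By age these were 1.16% at 14 d, 6.67% at 18 d, 3 of 15 members at 21 d and 8.33% at 28 d, and 21 d overlapped 7 d. In the Pdgfra cells the median log2 ratio of the same genes was -0.03. Of 11 imprinted and fetal growth genes 3 were higher at 7 d, H19, Mest and Igf2bp3, and none was lower. H19, a fetal noncoding RNA, had 101, 12.7, 7.96, 5.97 and 0 CPM from 7 d to 28 d, 11.5-fold higher at 7 d (6.67 to 21.8; 19.5-fold without 14 d), and was 2.66-fold higher at 7 d in the Pdgfra cells. Ier2, Ier3 and Atf3 of the 14 immediate-early and stress genes were higher at 7 d, and Hspa1b, a heat shock protein, was lower, with 108 CPM at 7 d and 259 CPM later. Of 18 regulators of the smooth muscle programme Klf4 and Id1 were higher at 7 d, 2.09-fold and 3.30-fold, and Nr2f2, a nuclear receptor of venous identity, was lower, at 366 and 750 CPM. Klf4 was no longer called without 18 d or without 28 d, nor Nr2f2 without 14 d or with TMM scaling (1.82-fold).

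Several of the largest ratios at 7 d belonged to genes of other cells and lay in few members. Hbb-bs, a globin of red cells, had 8306 UMIs at 7 d, 92.0% of them in 5 cells. Pf4 of platelets and Ccl21a of lymph node reticular cells had 93.1% and 96.7% of their UMIs in 5 cells. After thinning each cell to 2000 UMIs, 27.1% of members at 7 d held a Hbb-bs UMI, against 33.3% of T cells (cells with Ptprc, at least 2 Cd3d UMIs and 0 of Pdgfra, Pecam1 and Myh11) and 20.6% of Pdgfra cells, whose median depths were 5054 and 12742 UMIs. The member share thus lay between the shares of these other cells, neither of which is known to use the gene.

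Of 15 vasoactive receptor and cyclic GMP genes 3 were lower at 7 d, Adra2a, Npy1r and Rgs4, of 17 fibrillar collagen and matrix genes 3, Col6a1, Col6a2 and Mgp, and of 17 basement membrane genes 2, Lama4 and Lamb2, against 6.54% over all genes. None in these lists was higher, and Col6a1, Lama4 and Lamb2 were just under 2-fold and not called with TMM scaling. Col6a2, a chain of collagen VI, had 151, 372, 374, 388 and 306 CPM at 7, 14, 18, 21 and 28 d, 2.42-fold lower at 7 d (2.16 to 2.71), with 7 d below every later library. The 6 preadipocyte and fibroblast markers moved in the members too, at 1935, 3118, 2955, 3511 and 932 CPM from 7 d to 28 d, mostly Col1a1 and with the gate gene Pdgfra at 0, and their part in the matrix genes was not tested. Pln, phospholamban, which restrains the calcium pump of muscle, had 8.37, 25.4, 95.6, 65.7 and 62.2 CPM at 7, 14, 18, 21 and 28 d, 6.38-fold lower at 7 d (4.30 to 9.62). It was found in few cells, 14 of 529 members at 7 d and 19 of 170 later, with 71.8% and 49.4% of its UMIs in 5 cells. Adra2a, an adrenergic receptor, had 26.6, 113, 109, 35.8 and 48.8 CPM, 3.51-fold lower (2.73 to 4.51), and Npy1r, a receptor of the sympathetic cotransmitter neuropeptide Y, had 111, 238, 337, 275 and 209 CPM, 2.37-fold lower (2.07 to 2.71). Both receptors were below every later library at 7 d, although Adra2a was close to its 21 d value. Of 21 channel genes, 4 were lower at 7 d (Kcna5, Abcc9, Pln and Ano1) and 2 higher, Gja5 and the sodium-calcium exchanger Slc8a1. Gja5 had 103, 39.5, 26.5, 11.9 and 0 CPM from 7 d to 28 d, 3.80-fold higher at 7 d (2.75 to 5.39) and 6.59-fold without 14 d, with 57.5% of the 40 later UMIs in 5 cells. Abcc9 and Ano1 were no longer called without 14 d, at 1.48-fold and 1.72-fold lower, nor was Kcna5 without 18 d, nor Ano1 with TMM scaling (1.99-fold).

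Igfbp5 had 2043, 5907, 4683, 6109 and 2486 CPM at 7, 14, 18, 21 and 28 d. It was 2.50-fold lower at 7 d (2.42 to 2.57), although its 28 d value was near that of 7 d. In the Pdgfra cells Igfbp5 was lower at 7 d too, at 312 and 1531 CPM. Pdgfrb had 242, 516, 563, 478 and 360 CPM, 2.07-fold lower at 7 d (1.88 to 2.27), while in the Pdgfra cells it had 62.1 and 63.2 CPM. In the members Pdgfrb was no longer called with TMM scaling (1.83-fold) or without 18 d (1.98-fold). Notch3 had 540, 1260, 1128, 657 and 564 CPM and, at 1.95-fold lower, was not called. Its 7 d and 28 d values were close. Of 12 pericyte genes 5 were lower at 7 d, with a median log2 ratio of -0.71, among them Steap4 at 12.7, 45.1, 122, 59.7 and 133 CPM. Art3 and Vtn were no longer called without 28 d (1.84-fold and 1.98-fold lower), nor Abcc9 without 14 d (1.48-fold). Of 9 adipogenic genes 4 were lower at 7 d, Plin1, Pparg, Lpl and Cd36, and none was higher. Lpl, lipoprotein lipase, had 159, 297, 369, 400 and 502 CPM, 2.26-fold lower at 7 d (2.01 to 2.53) and just under 2-fold with TMM scaling, and Pparg, the regulator of fat cell formation, had 21.5, 38.0, 53.1, 83.6 and 84.4 CPM. Both genes had their lowest value at 7 d and their highest at 28 d. Plin1 rested on few counts, at 6.65 CPM at 7 d and 42.6 CPM later.

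Among single genes with the largest fall at 7 d, Fst, the activin antagonist follistatin, had 30.5, 218, 133, 269 and 178 CPM at 7, 14, 18, 21 and 28 d, 6.44-fold lower at 7 d (5.25 to 7.92), with 42.1% of the later UMIs in 5 cells. Hmcn2, an extracellular matrix protein, had 70.4, 568, 276, 197 and 93.2 CPM, 5.39-fold lower (4.69 to 6.19), and 28 d was near 7 d. Without the 14 d library Hmcn2 was 2.92-fold lower. Mgp had 46.3, 172, 311, 567 and 53.3 CPM, so that 28 d was near 7 d, with 65.3% of the later UMIs in 5 cells. Mamdc2, C2, Chrdl1, Ecm2, H2-M9, Scn3a, Clec2d, Adra2a and Cpxm2 completed the 12, at up to 5.47-fold lower. Fst was 0.697-fold and Hmcn2 1.46-fold at 7 d over later ages in the Pdgfra cells. In the gated pericytes Fst was 0.171-fold, at 45.8 and 268 CPM, and Hmcn2 0.628-fold, from 14 UMIs. Without the 14 d library, which holds about as many UMIs as the other later ages together, 460 genes were higher at 7 d and 503 lower.

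None of the 25 contractile genes was called, and their median log2 ratio was -0.13. Cnn1 had 575, 568, 260, 466 and 519 CPM at 7, 14, 18, 21 and 28 d. Actg2 had 703, 621, 215, 454 and 639 CPM, and both genes were lowest at 18 d. Lmod1, leiomodin, which nucleates actin filaments, had 583, 469, 457, 531 and 466 CPM. Tagln had 10587, 6324, 6881, 7339 and 6846 CPM, 1.59-fold higher at 7 d (1.56 to 1.62), and Mylk had 1982, 3111, 2148, 3332 and 1700 CPM. Myocd had 79.0, 144, 101, 53.7 and 40.0 CPM. Eln varied more among the later ages than between them and 7 d, with 3298, 9282, 2350, 1779 and 901 CPM at 7, 14, 18, 21 and 28 d.

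**Figure D4:**
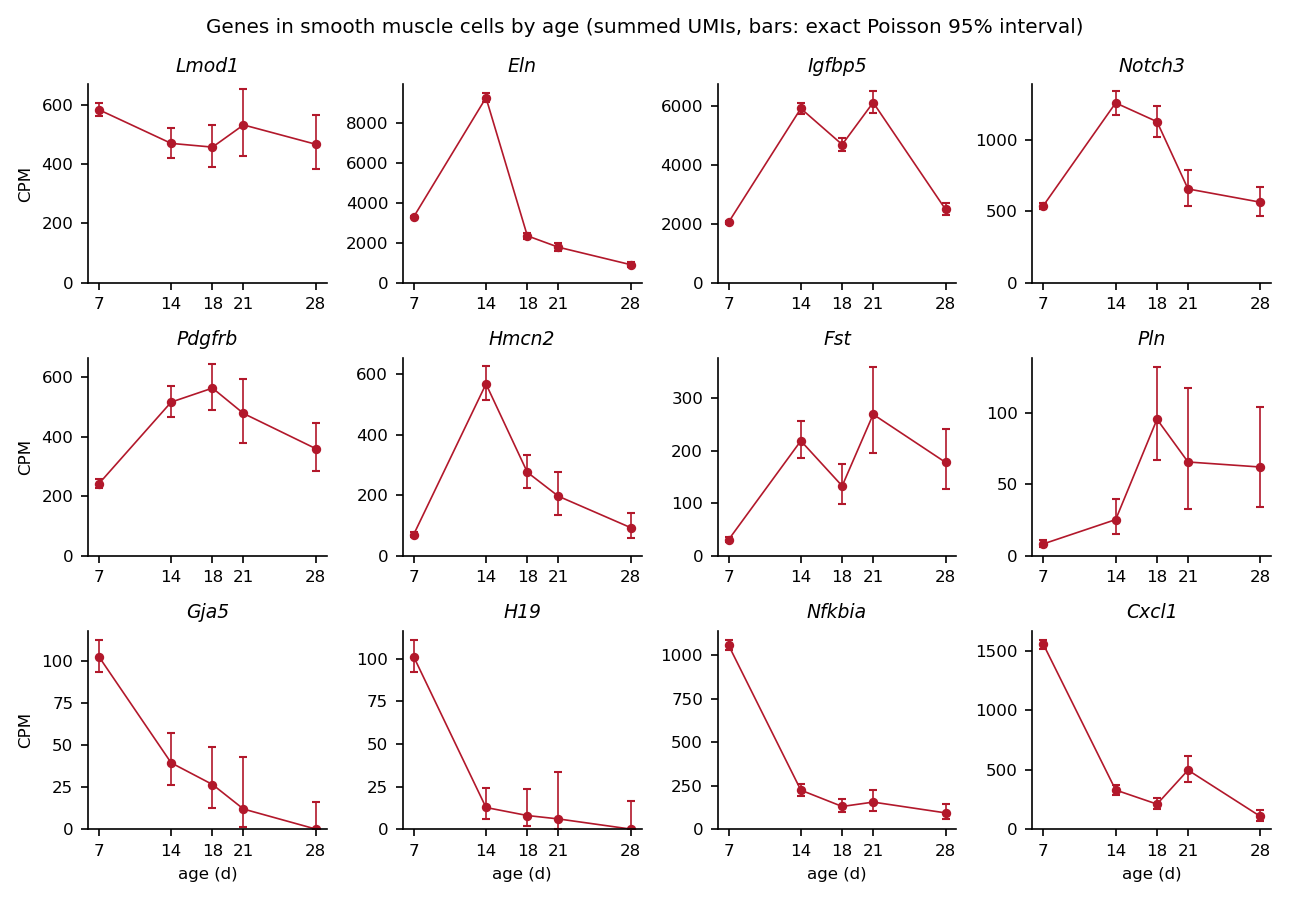
CPM of listed genes in the smooth muscle cells of each library against age in days; points are single libraries with exact 95% Poisson intervals, which cover counting error only. Nfkbia, Cxcl1, H19 and Gja5 are highest at 7 d, Pln, Fst and Pdgfrb are lowest at 7 d, and Lmod1 stays between 457 and 583 CPM.

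Variation among the members was described for a chosen set of genes around Cnn1. Per cell, Cnn1 at 7 d had a median of 320 CPM (quartiles 0 and 806) and at later ages 163 CPM (0 and 580), and Fabp4, a fatty acid carrier of capillary and fat cells, had 372 CPM (58 and 3566) and 387 CPM (0 and 6517). Tagln, in contrast, was detected in all members. Across members at 7 d (n = 529) and at later ages (n = 170), Spearman's rho of Cnn1 and Actg2 was 0.69 and 0.71, and of Cnn1 and Eln 0.48 and 0.46. Cnn1 ran opposite to Fabp4 (-0.49 and -0.66) and to Rgs5 (-0.52 and -0.40), and Actg2 opposite to Fabp4 (-0.54 and -0.67). Rgs5 and Fabp4 ran together at 7 d (0.46) and less so later (0.24). With every cell thinned to 2000 UMIs, the values were 0.48 and 0.38 for Cnn1 and Actg2, -0.41 and -0.46 for Cnn1 and Fabp4, and -0.38 and -0.32 for Cnn1 and Rgs5. The points share libraries and differ in depth (rho of Cnn1 with total UMIs 0.24 and 0.34), so these values are descriptions.

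Among 3467 genes found in enough members, those with the most positive rho to Cnn1 at both ages were Actg2, Ppp1r14a, Sh3bgr, Acta2, Cd9, Eln, Tpm1, Prss23, Wisp2, Fbxl22, Spint2 and Tpm2, with the lower of both values from 0.43 to 0.69. Ppp1r14a is an inhibitor of myosin phosphatase, and Tpm1 and Tpm2 are tropomyosins of the thin filament. Among the most negative were Ebf1, Fabp4, Ntrk2, Lpl, Tbx2, Phlda1, Rgs5, Mef2c, S1pr3 and Ndufa4l2. Ebf1 and Tbx2 are transcription factors, Lpl and Fabp4 handle lipids, and S1pr3 is a sphingosine 1-phosphate receptor. Ebf1 had a rho of -0.52 and -0.55, and Mef2c, although higher in smooth muscle cells than in pericytes, had -0.40 and -0.51.

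**Figure D5:**
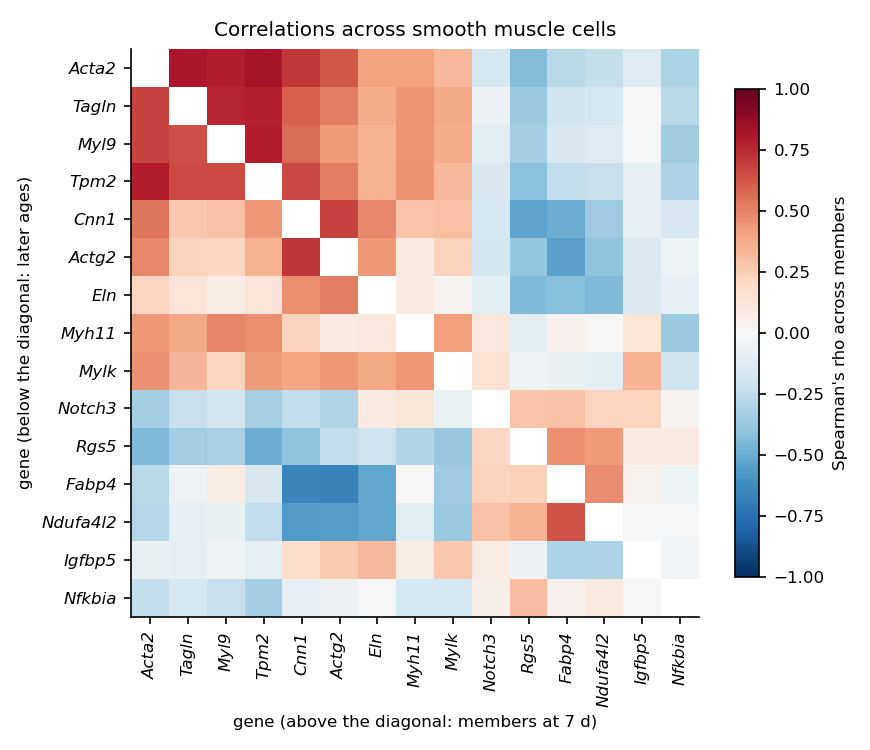
Spearman's rho between genes across smooth muscle cells, with 7 d above the diagonal and later ages below it. Cnn1, Actg2 and the other contractile genes form a positive block, and Rgs5 and Fabp4 have negative values to Cnn1.

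At equal depth of 2000 UMIs, 47.5% of members at 7 d (exact interval 43.1 to 51.9, n = 520) and 36.5% at later ages (29.2 to 44.3, n = 167) held a Cnn1 UMI, against 0.169% and 0% of T cells and 1.23% and 0% of pericytes. For 9 and 3 members the depth was too low for thinning, and without thinning the shares were 66.7% and 55.3%. Actg2 was found in 53.8% and 41.3% of members and in 0.903% and 0.374% of T cells. The Cnn1 and Actg2 shares were thus higher in members than in T cells, and free RNA itself was not measured. Across members at 7 d both genes rose with the gate gene Acta2 (Spearman's rho 0.71 and 0.62). Higher shares in members were therefore bound to follow from the gate. Myocd was found in 13.1% of members at 7 d and 22.2% later, and in none of the 81 thinned pericytes at 7 d, which allows up to 3.70% of such cells to hold a UMI at that depth. Without thinning, 43.3% of members and 4.40% of pericytes at 7 d held a Myocd UMI. Kit, the stem cell factor receptor best known from mast cells, was found in 9.42% and 10.8% of members, against 0.733% and 0.374% of T cells and 0.553% and 0.0664% of Pdgfra cells. Pericytes held it in 3.70% at 7 d (exact interval 0.770 to 10.4, 3 of 81) and 3.23% later (0.0816 to 16.7, 1 of 31), and the intervals overlapped those of the members (7.05 to 12.3 and 6.51 to 16.5). Kit had 11.5, 65.5, 0, 0 and 24.9 CPM in pericytes from 7 d to 28 d, from 9, 6, 0, 0 and 1 UMIs. In members it had 39.5, 83.1, 47.8, 29.9 and 22.2 CPM from 7 d to 28 d. The mast cell proteases Cpa3 and Tpsab1 were near 0 in members, with 11 and 6 UMIs at 7 d. T cells held a median of 5054 UMIs at 7 d and 4942 later.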

How the data were processed

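The matrix of unnormalized UMI counts deposited by the authors (31053 genes, 46684 cells) was used. Per the labels and the study's methods, libraries were made by droplet 3′ sequencing and counted with Cell Ranger 3.1.0 on GRCm38 (mm10), doublets called by Scrublet were removed, and cells with over 20% mitochondrial UMIs, under 200 or over 6000 genes were dropped. No further doublet removal was done here. Age was read from the barcode suffix. Members and gene lists were chosen with earlier results of these data known.

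Class sums were tested with edgeR 4.0.16 (R 4.3.3; TMM, filterByExpr, quasi-likelihood F test, library unit and class as terms, Benjamini-Hochberg adjustment), leaving out the 6 gate genes. Standard errors were derived from the fold change and F. On simulated data with the 9203 genes, 31% of 2-fold and 95% of 4-fold changes were recovered, and 3.82% of calls were false. In the simulation both classes shared each unit effect, and only genes above a CPM limit were changed. These rates need not hold for genes at low levels or where the class difference varies between units, as it did for several genes here. Nothing in the labels says that cells of a library are more than 1 sample, and no p was computed between ages. Ratios between ages carry exact conditional 95% intervals, shares exact Clopper-Pearson intervals, and 0 was taken as up to 3 counts. Named genes were the list genes and the 12 genes each way with the largest difference among those called with at least 200 UMIs, without predicted genes; a few genes are not reported here. Alternatives were DESeq2 1.42.0, its size factors, no filter, no block, other gates, thinning to 2000 UMIs and leaving out libraries. Other cell types were not analysed here beyond reference values.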

Additional observations from a re-analysis of the deposited data

Results flagged for a closer look

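Some genes moved in opposite directions in groups set side by side; none of these differences between groups was tested. The ratio of 7 d to later ages was 0.268 for Scn3a, 0.421 for Rgs4 and 0.397 for Pparg in smooth muscle cells and 4.79, 6.45 and 1.13 in the Pdgfra cells. The log2 ratio of smooth muscle cells to pericytes was -1.72 at 7 d and 3.47 later for Gata6, -2.74 and 3.49 for Gdf10, -1.76 and 1.20 for Loxl1, and -2.78 and 1.95 for Col15a1. It was -2.53 and 1.74 for Il6, -1.98 and 1.14 for Plagl1, and -1.35 and 1.48 for Igfbp4. The opposite order was found for Higd1b (1.42 and -1.55), H19 (1.85 and -2.01) and Fabp4 (1.28 and -1.38). Of the pericytes, 40 of 91 at 7 d and 1 of 39 later held at least 2 Lum UMIs, and the part of this in these ratios was not tested.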

How the results depend on the processing

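Of the genes called between smooth muscle cells and pericytes and named, 3 turned direction, under the narrower pericyte class chosen after seeing the data, with log2 fold changes of 0.76 for Clu, 3.12 for Ccl19 and 0.13 for Vcam1. That class left out cells with Ccl19 by construction; the cause for Clu and Vcam1 was not tested. Of 237 list genes in both fits, 53 had the other direction with that class, and 52 of the 53 were not called. The 53 held 6 cell cycle and 6 immediate-early genes, 5 each of the fibrillar, NF-kappaB, TGF-beta and regulator lists, and up to 3 of any other list. The 166 higher and 123 lower genes became 470 and 394 with no filter, 65 and 52 with no replicate block, 310 and 251 with a gate scaled to depth, 482 and 375 without cells holding UMIs of other types, 845 and 1195 with pericytes free of the zero conditions, and 273 and 158 with the narrower class. DESeq2 gave 128 and 111. With single libraries as units there were 199 and 127, and leaving out 1 library each gave 51 to 164 higher and 34 to 132 lower, the fewest without 7 d. Leaving a unit out of the 2-unit fit left no residual degrees of freedom and was not run. Each age has 1 replicate, so the pairing rests on the shared library of both classes.

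Between ages the 323 higher and 580 lower genes became 181 and 210 after thinning, when 4009 genes were compared, and 433 and 327 with TMM factors. Only 72 of the 181 and 114 of the 210 were among the 323 and 580, and without 14 d 257 of 460 and 332 of 503 were. Leaving out 1 later library gave 315 to 460 higher and 503 to 632 lower. Stricter thresholds (5 Myh11 and 20 Acta2 UMIs) gave a share of 2.96% at 7 d, and the scaled gate 0.966% at 18 d. Of the fold changes of named genes under these alternatives, 741 kept their call or absence of one, 66 lost their call and 3 reversed; of the ratios between ages, 647 stayed within their interval and 83 moved. The depth of the 15 members at 21 d and the 39 later pericytes limits what can be seen there.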
